A study of Mus musculus with 14 samples.

Results

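The expression of 10 genes that act upstream of YAP and TAZ was examined in mouse embryonic fibroblasts undergoing cardiac reprogramming. They were Stk4, Sav1, Mob1a, Mob1b, Lats1 and Lats2, which encode the core kinases of the Hippo pathway and their partners, Nf2, which encodes the upstream activator merlin, and Amot, Amotl1 and Amotl2, which encode the angiomotins. A feature of the array was taken for a gene when its only gene symbol in the platform annotation was that of the gene. This gave 11 features of 22206, with 1 for each gene and a further feature for Amot that the platform leaves unmapped. Over 5 comparisons, 0 of 51 tests of these features passed limma at an adjusted p under 0.05, and 8 had an unadjusted p under 0.05. Of all features, 3.93% to 11.4% were higher and 4.17% to 7.39% lower at that unadjusted p, depending on the comparison, so the count of 8 was within the background. The differences with the smallest p were a lower Stk4 with shYAP, a higher Amotl2 with YAP-5SA than with TAZ-4SA, a higher Nf2 with shYAP, and a higher Amot with shTAZ.

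All cells were mouse embryonic fibroblasts transduced with retroviral Gata4, Hand2, Mef2c and Tbx5 (GHMT), and their RNA was measured after 2 weeks on 14 Clariom S Mouse arrays. The 7 groups had 2 arrays each. GHMT/126 kPa and GHMT/8 kPa differed only in the stiffness of the Matrigel-based hydrogel. On 126 kPa, GHMT/Scramble, GHMT/shYAP and GHMT/shTAZ also carried a lentiviral control shRNA or an shRNA against YAP or TAZ. On 8 kPa, GHMT/YAP-5SA and GHMT/TAZ-4SA also carried a retroviral YAP or TAZ in which serines are replaced by alanine. GHMT was thus common to all groups, no group lacked it, and the labels mention no sort of the cells. The groups allow 3 questions about feedback on the upstream pathway, namely whether its genes differ on a soft matrix, when YAP or TAZ is lowered, or between an active YAP and an active TAZ.

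In the Hippo pathway the kinases MST1 and MST2 bind the scaffold SAV1 and phosphorylate LATS1 and LATS2 together with their coactivators MOB1A and MOB1B. Active LATS kinases phosphorylate YAP and TAZ, which are then held in the cytoplasm or degraded, and YAP and TAZ that escape enter the nucleus and drive transcription with TEAD factors. Merlin recruits LATS to the membrane, and angiomotins bind YAP and TAZ directly, hold them at junctions and actin, and activate LATS. LATS2 and AMOTL2 are known from other cells as transcriptional targets of YAP and TAZ, which closes a negative feedback loop. YAP-5SA and TAZ-4SA lack serines that LATS phosphorylates, so the kinases act on them little or not at all. Stk4 encodes MST1. Stk3, which encodes MST2, had no feature with that symbol and was not analysed here.

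Promoter sequences of the genes were read for the letters CATTCC, the core of the site that TEAD factors bind, on either strand, which on the other strand reads GGAATG. RefSeq (assembly GRCm38.p6) gave 12 windows for the 10 genes, each running from 250 bases before to 50 bases after a transcription start. The letters were found in windows of 4 of the 10 genes (40%), against 16.58% of 27025 genes with a window. In Amotl2 they stood 65 bases before the start, in Sav1 106 and in Mob1a 209 bases before it, and in 1 of the 2 Lats2 windows 4 bases after it. The windows of Amotl2 and Lats2 are shown because these are the known feedback genes. That of Amotl1 is shown because, among the 10 genes, its values followed those of Amotl2 most closely. Capitals mark the matched letters, and the Amotl1 window (chr9:14614951-14615250, minus strand) held none. The Amotl2 window lies at chr9:102717554-102717853 on the plus strand and the Lats2 window at chr14:57746074-57746373 on the minus strand, each written 5′ to 3′ along the gene.
Amotl1: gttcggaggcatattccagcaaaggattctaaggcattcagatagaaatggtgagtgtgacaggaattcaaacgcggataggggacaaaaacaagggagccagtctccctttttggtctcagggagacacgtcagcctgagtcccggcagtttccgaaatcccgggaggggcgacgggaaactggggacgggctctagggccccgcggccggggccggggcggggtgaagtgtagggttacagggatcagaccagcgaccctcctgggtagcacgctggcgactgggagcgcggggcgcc
Amotl2: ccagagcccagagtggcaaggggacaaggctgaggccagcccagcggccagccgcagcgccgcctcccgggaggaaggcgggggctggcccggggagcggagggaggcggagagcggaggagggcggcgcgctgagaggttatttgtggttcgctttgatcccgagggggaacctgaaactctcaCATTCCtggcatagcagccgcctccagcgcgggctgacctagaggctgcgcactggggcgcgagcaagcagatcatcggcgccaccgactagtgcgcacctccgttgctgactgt
Lats2: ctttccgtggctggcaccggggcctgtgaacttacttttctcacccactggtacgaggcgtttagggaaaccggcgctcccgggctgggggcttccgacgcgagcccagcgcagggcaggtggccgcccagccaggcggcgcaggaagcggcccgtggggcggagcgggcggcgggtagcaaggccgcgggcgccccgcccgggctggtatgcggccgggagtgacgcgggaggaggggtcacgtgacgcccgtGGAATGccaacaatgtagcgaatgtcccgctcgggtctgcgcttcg
A match is a description of the sequence, and no binding was measured here.

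The deposited values are log2 ratios that the authors made separately for 3 sets of arrays. The stiffness values are set against the GHMT/126 kPa mean and the shRNA values against the GHMT/Scramble mean, so the arrays of these reference groups mirror each other around 0. For the mutant set no source used here names the reference and it could not be worked out from the values, so YAP-5SA and TAZ-4SA were compared only with each other. A ratio carries no signal level, so levels were not compared between genes and no gene was left out as dim. A difference is given in log2 between 2 group means, the first-named group minus the second, with n = 2 arrays per group, the SE and 95% interval from limma for that gene alone, and a p adjusted by Benjamini-Hochberg over all features tested. In such bulk RNA, fewer cells of a type and less RNA per cell cannot be told apart.

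**Figure D1:**
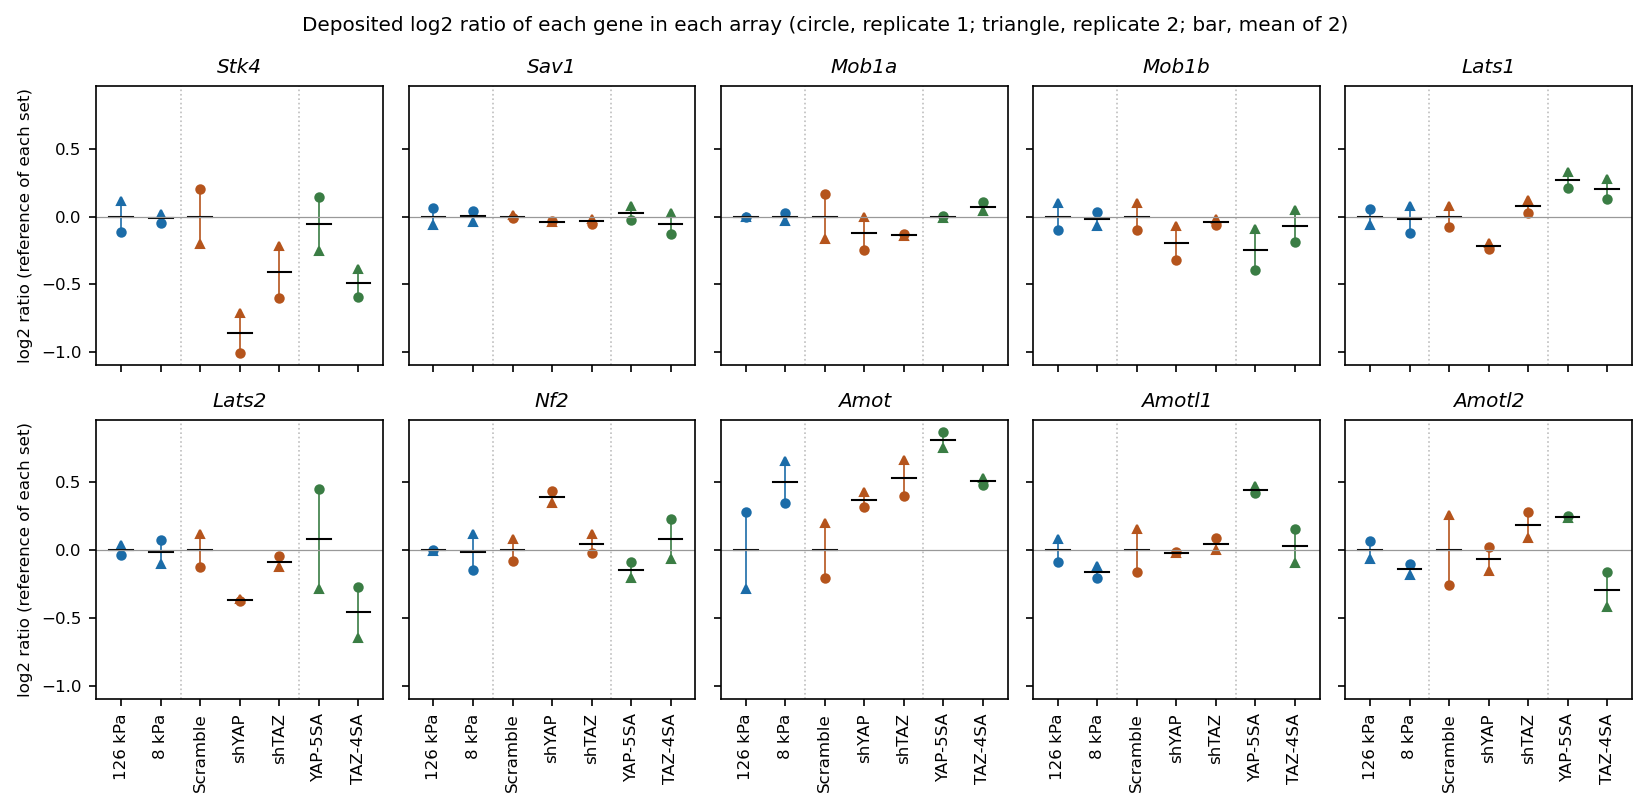
Deposited log2 ratio (vertical axis) of each of the 10 genes in the 7 groups (horizontal axis), with circles for replicate 1, triangles for replicate 2 and a bar for the mean of 2. Dotted lines separate the 3 sets, which have different references and are not compared. Stk4 was lowest in the shYAP arrays at -1.002 and -0.71, and Sav1 lay between -0.13 and 0.08 throughout.

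On 8 kPa the kinase cascade and Nf2 differed little from 126 kPa. The 7 genes Stk4, Sav1, Mob1a, Mob1b, Lats1, Lats2 and Nf2 had differences of at most 0.0204 in size, and 6.76% of the 22206 features had one as small. Stk4 had -0.05 and 0.02 on 8 kPa against -0.11 and 0.11 on 126 kPa, and its 95% interval ran from -0.40 to 0.37. Lats2 had 0.07 and -0.10 against -0.04 and 0.04, and its interval ran from -0.39 to 0.36. In all 7 genes the arrays of the groups overlapped, and the widest interval was that of Nf2, from -0.415 to 0.384.

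The angiomotins had larger differences on 8 kPa, in both directions, and none passed. Amot had 0.35 and 0.65 on 8 kPa against 0.28 and -0.28 on 126 kPa, a difference of 0.50 (SE 0.24, limma adjusted p = 0.541). Both 8 kPa arrays lay above both 126 kPa arrays, but the 126 kPa arrays lay farther apart than the difference of the means, and the interval ran from -0.11 to 1.12. Leaving out 1 array moved the difference between 0.22, without 126 kPa replicate 2, and 0.79, without 126 kPa replicate 1. The unmapped Amot feature, which has values only in this set, had 0.16 and -0.16 against -0.03 and 0.53 in 126 kPa and 8 kPa, in that order, and its groups overlapped (difference 0.25, SE 0.24). Amotl1 had -0.21 and -0.12 on 8 kPa against -0.08 and 0.08, a difference of -0.16 (SE 0.15, limma adjusted p = 0.748). Amotl2 had -0.10 and -0.18 against 0.07 and -0.07, a difference of -0.14 (SE 0.14, limma adjusted p = 0.772). For both, the 8 kPa arrays lay below the 126 kPa arrays, and differences at least as large were found in 51.7% of features for Amotl1 and 56.9% for Amotl2.

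Of the 11 features, 1 did not overlap between the stiffness groups as higher on 8 kPa and 2 as lower, against 24.3% and 17.8% of all features. None of the 11 had an unadjusted p under 0.05, against 5.95% higher and 4.69% lower of all features, and past the adjusted threshold were 0 features higher and 16 lower, or 0.0721%. The median difference of the 10 genes was -0.015, with 2 above 0 and 8 below, beside 0.034 over all features.

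Stk4 was the member farthest from the scramble control when YAP was lowered. The YAP gene Yap1 itself had -0.89 and -0.88 in shYAP against -0.11 and 0.11 in Scramble, and fell by 0.88 (SE 0.12, limma adjusted p = 0.0498). The TAZ gene Wwtr1 had -0.36 and -0.31 in shTAZ against -0.25 and 0.25 in Scramble, with no overlap and a difference of -0.34 that did not pass (SE 0.17, limma adjusted p = 0.430). Stk4 had 0.20 and -0.20 in Scramble, -1.002 and -0.71 in shYAP, and -0.60 and -0.22 in shTAZ. Both shYAP arrays and both shTAZ arrays lay below both Scramble arrays, the nearest pair being -0.22 in shTAZ and -0.20 in Scramble. With shYAP the level of Stk4 was 0.552 times that in Scramble, a log2 difference of -0.86 (SE 0.20, 95% interval -1.34 to -0.37), with an unadjusted p of 0.00463 and a limma adjusted p of 0.124. Of all features, 3.43% differed by as much. With shTAZ the difference was -0.41 (SE 0.20, interval -0.89 to 0.07, limma adjusted p = 0.416), and between shYAP and shTAZ it was -0.45 (SE 0.20, limma adjusted p = 0.650). The comparisons with shYAP and with shTAZ use the same Scramble arrays, which differed from each other by about as much as the shTAZ arrays did. Leaving out 1 array moved the Stk4 difference with shYAP between -1.06, without Scramble replicate 2, and -0.65, without Scramble replicate 1. It moved that with shTAZ between -0.61, without Scramble replicate 2, and -0.21, without Scramble replicate 1, with -0.22 without shTAZ replicate 1. The difference of shYAP from shTAZ moved between -0.64, without shTAZ replicate 1, and -0.25, without shTAZ replicate 2. In 1 fit to all 14 arrays Stk4 passed with shYAP, at a difference of -0.86 (limma adjusted p = 0.0476). That fit also called more features over all with shYAP than the fit to the shRNA set did.

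The LATS kinases had smaller differences with the shRNAs. Lats2 had -0.12 and 0.12 in Scramble, -0.37 and -0.36 in shYAP, and -0.04 and -0.12 in shTAZ. The shYAP arrays nearly coincided and lay below the other 4. Lats2 thus differed by -0.37 with shYAP (SE 0.12, interval -0.66 to -0.08, limma adjusted p = 0.192), a level 0.774 times that in Scramble, and by -0.08 with shTAZ (SE 0.12, interval -0.37 to 0.20). Lats1 had -0.08 and 0.08 in Scramble, -0.24 and -0.20 in shYAP, and 0.03 and 0.12 in shTAZ. Here too both shYAP arrays lay below the other 4, and Lats1 differed by -0.22 from Scramble (SE 0.11, limma adjusted p = 0.330) and by -0.29 from shTAZ (SE 0.11, interval -0.55 to -0.03, limma adjusted p = 0.587). Without Scramble replicate 2 the Lats1 difference with shYAP was -0.14. Between shYAP and shTAZ, Lats2 differed by -0.285 (SE 0.12, limma adjusted p = 0.621).

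Of the partners of the kinases, Sav1 stayed close to the control, and the MOB1 genes had wider intervals. The scaffold gene Sav1 had -0.01 and 0.01 in Scramble, -0.03 and -0.04 in shYAP, and -0.05 and -0.02 in shTAZ. Its differences from Scramble were -0.04 with shYAP and -0.03 with shTAZ (SE 0.10 for each), so the arrays did not overlap although the distances were small. The pooled SD of Sav1 over replicates of this set was 0.017, and 0.42% of features had one as low. Mob1a differed by -0.12 with shYAP and -0.13 with shTAZ (SE 0.15 for each), and Mob1b by -0.19 and -0.04 (SE 0.13 for each). For both MOB1 genes the arrays of each shRNA overlapped with those of Scramble, and the interval of Mob1b with shYAP ran from -0.51 to 0.13.

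With shYAP, Nf2 differed in the opposite direction from Stk4, Lats1 and Lats2. It had -0.08 and 0.08 in Scramble, 0.43 and 0.35 in shYAP, and -0.02 and 0.12 in shTAZ. The shYAP arrays lay above the other 4, at a level 1.31 times that in Scramble (difference 0.39, SE 0.12, interval 0.11 to 0.67, limma adjusted p = 0.168). With shTAZ the difference was 0.05 (SE 0.12, interval -0.23 to 0.33), and between the shRNAs it was 0.34 (SE 0.12, interval 0.06 to 0.62, limma adjusted p = 0.551).

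Among the angiomotins, Amot was higher in both knockdowns, and the arrays of its relatives overlapped with those of the control. Amot had -0.20 and 0.20 in Scramble, 0.32 and 0.43 in shYAP, and 0.40 and 0.66 in shTAZ. All 4 knockdown arrays lay above both Scramble arrays. With shTAZ the difference was 0.53, or 1.45 times the level in Scramble (SE 0.17, interval 0.12 to 0.94, limma adjusted p = 0.253), and with shYAP it was 0.37 (SE 0.17, interval -0.03 to 0.78, limma adjusted p = 0.297). Leaving out 1 array moved the Amot difference with shTAZ between 0.33, without Scramble replicate 1, and 0.73, without Scramble replicate 2. With shYAP the Amot difference moved between 0.17 and 0.58 without the same Scramble arrays. Amotl1 had -0.16 and 0.16 in Scramble, -0.01 and -0.02 in shYAP, and 0.09 and 0.00 in shTAZ. Amotl2 had -0.26 and 0.26 in Scramble, 0.03 and -0.15 in shYAP, and 0.28 and 0.09 in shTAZ. For both genes the Scramble arrays were far apart and most knockdown arrays fell between them, with differences from -0.06 (SE 0.19, interval -0.52 to 0.39) to 0.19 (SE 0.19, interval -0.27 to 0.64), both of Amotl2.

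Counted against the background, the members with shYAP were 2 of 10 not overlapping as higher (Nf2 and Amot) and 4 as lower (Lats1, Lats2, Stk4 and Sav1), beside 31.0% and 19.6% of all features. At an unadjusted p under 0.05 there were 1 higher and 2 lower, beside 11.4% and 7.39%, and at the adjusted threshold 0 members, beside 0.321% and 0.212%. With shTAZ, 1 member was higher without overlap (Amot) and 2 lower (Stk4 and Sav1), beside 28.6% and 17.9%, and Amot alone had an unadjusted p under 0.05, beside 8.68% higher and 5.71% lower. No feature at all, or 0%, passed with shTAZ. Between the shRNAs, 1 member was higher in shYAP without overlap (Nf2) and 6 lower (Lats1, Lats2, Stk4, Mob1b, Amotl1 and Amotl2), beside 23.6% and 20.6%. At an unadjusted p under 0.05 in that comparison were Nf2 as higher, beside 3.93%, and Lats1 as lower, beside 4.17%, and 0.0316% and 0.0136% of features passed the adjusted threshold. The median difference of the 10 genes was -0.093 with shYAP (all features 0.050), 0.006 with shTAZ (all features 0.043) and -0.155 between shYAP and shTAZ (all features 0.012), with 8, 5 and 8 of 10 genes lower.

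**Figure D2:**
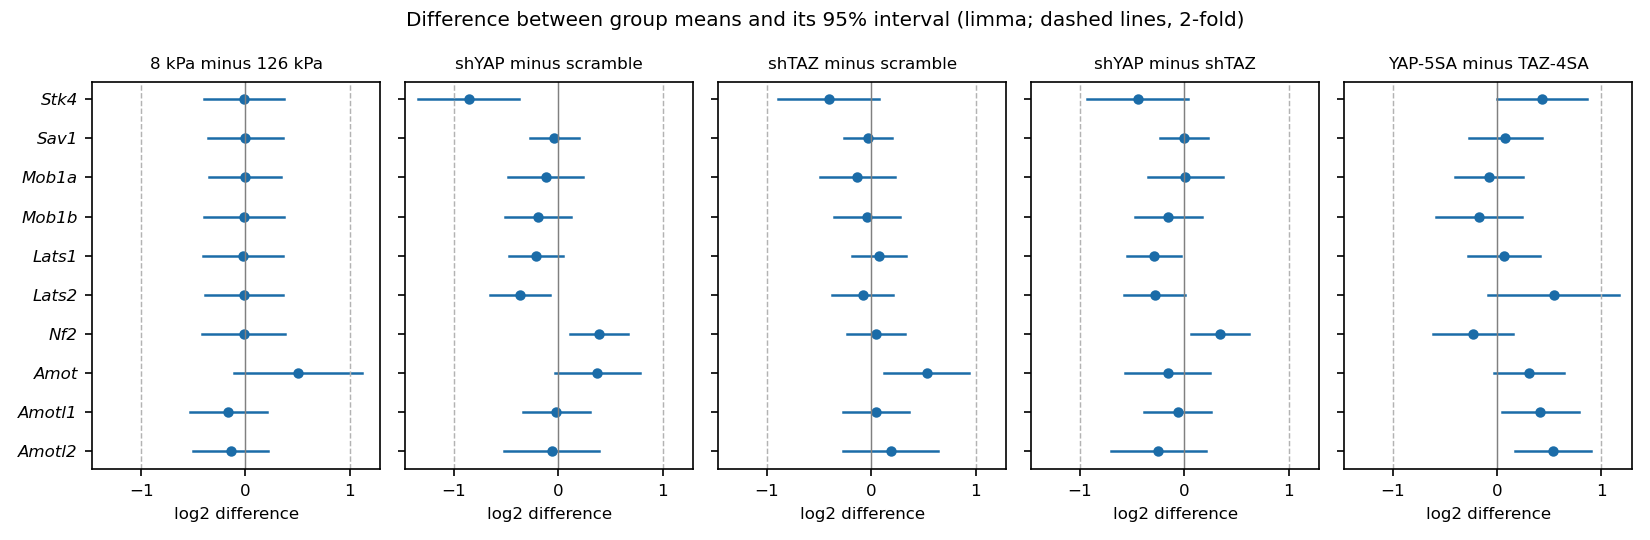
Difference between group means of each gene in log2 (horizontal axis, points) with its 95% interval from limma (lines) in the 5 comparisons, with dashed lines at a 2-fold difference. With the unmapped Amot feature, which is not drawn, 48 of 51 intervals lay within the dashed lines, and those of Amot on 8 kPa, Stk4 with shYAP and Lats2 between the mutants crossed one.

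On 8 kPa the 3 angiomotin genes were all higher with YAP-5SA than with TAZ-4SA, and none of these differences passed. Amotl2 had 0.25 and 0.24 with YAP-5SA and -0.16 and -0.42 with TAZ-4SA. The YAP-5SA arrays nearly coincided and lay above both TAZ-4SA arrays, at 1.45 times their level (difference 0.54, SE 0.15, interval 0.17 to 0.90, unadjusted p 0.0106, limma adjusted p = 0.214). Amotl1 had 0.42 and 0.47 against 0.16 and -0.10, a difference of 0.41 (SE 0.15, interval 0.05 to 0.78, limma adjusted p = 0.315). Amot had 0.87 and 0.75 against 0.48 and 0.53, a difference of 0.31 (SE 0.14, interval -0.03 to 0.64, limma adjusted p = 0.406). For all 3 angiomotins the arrays of the mutants did not overlap.

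Of the kinases, Stk4 was also higher with YAP-5SA than with TAZ-4SA without overlap, whereas the arrays of Lats2 overlapped. Stk4 had 0.14 and -0.26 with YAP-5SA and -0.59 and -0.38 with TAZ-4SA, with no overlap and a difference of 0.43 (SE 0.18, interval -0.01 to 0.86, limma adjusted p = 0.372). That difference moved between 0.23, without YAP-5SA replicate 1, and 0.63, without YAP-5SA replicate 2. Lats2 had 0.45 and -0.29 against -0.27 and -0.65, and its difference of 0.54 (SE 0.26, interval -0.09 to 1.17, limma adjusted p = 0.426) was smaller than the gap of its YAP-5SA arrays. Leaving out 1 array at a time moved the Lats2 difference between 0.17, without YAP-5SA replicate 1, and 0.91, without YAP-5SA replicate 2. The pooled SD of Lats2 in this set was 0.414, and 96.5% of features had one as low or lower. Lats1 had 0.21 and 0.33 against 0.13 and 0.28, a difference of 0.06 (SE 0.15, interval -0.28 to 0.41), and the groups overlapped.

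The remaining members had smaller differences between the mutants. Nf2 had -0.09 and -0.20 with YAP-5SA and 0.23 and -0.06 with TAZ-4SA, which did not overlap, and the difference was -0.23 (SE 0.16, interval -0.61 to 0.15, limma adjusted p = 0.585). It was -0.08 without TAZ-4SA replicate 1 and -0.38 without TAZ-4SA replicate 2. Mob1b differed by -0.18 (SE 0.17), Mob1a by -0.08 (SE 0.14) and Sav1 by 0.08 (SE 0.15). Not overlapping were 4 members as higher with YAP-5SA (Stk4, Amot, Amotl1 and Amotl2) and 2 as lower (Mob1a and Nf2), beside 21.8% and 23.9% of all features. At an unadjusted p under 0.05 were 2 members (Amotl1 and Amotl2), both higher, beside 6.55% higher and 7.00% lower, and at the adjusted threshold 0 members, beside 0.402% and 0.493%. The median of the 10 genes was 0.192, with 7 higher and 3 lower, beside -0.009 over all features.

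**Figure D3:**
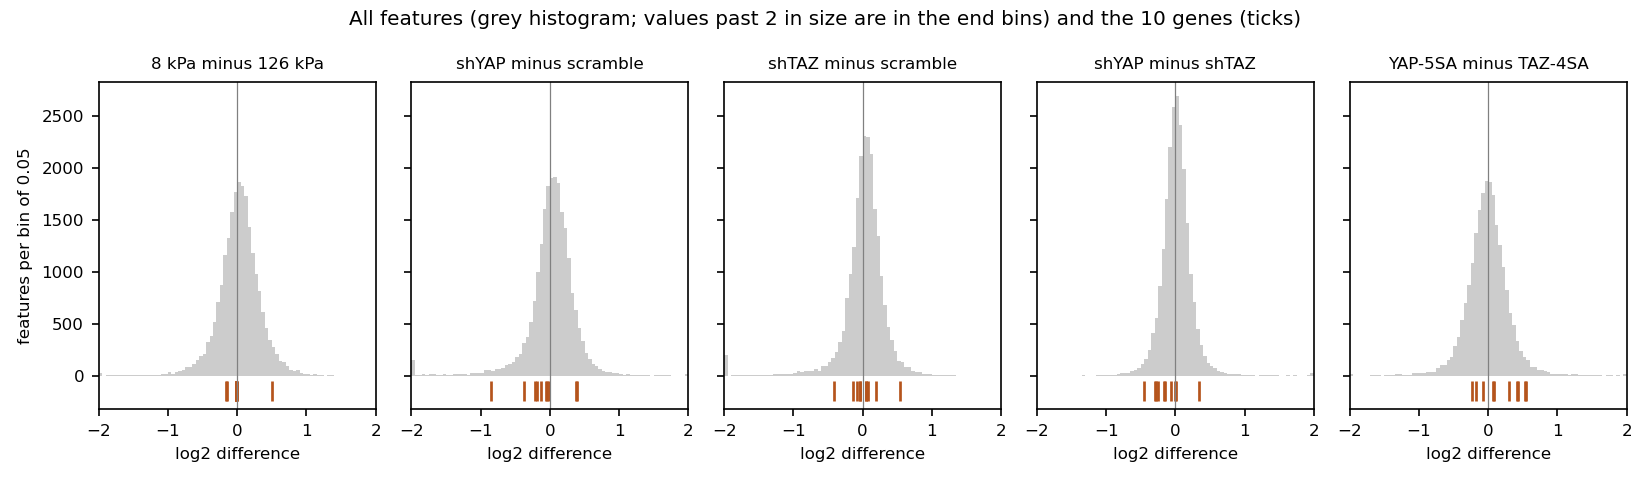
Number of features per bin of 0.05 (vertical axis) by log2 difference (horizontal axis) in the 5 comparisons, with all features in grey and the 10 genes as ticks below. The tick farthest out is Stk4 with shYAP at -0.86, and 3.43% of all features differed by as much in that comparison.

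The angiomotin-like genes Amotl1 and Amotl2 varied together across the arrays. After the mean of each set was subtracted, their Pearson r over the 14 arrays was 0.871 and their Spearman rho 0.908, and r was 0.779 over 12 arrays without the 2 farthest from the median. The arrays share a reference within a set, which makes those of GHMT/126 kPa and of Scramble mirror each other, so the points are not independent and r is a description. The r of Amotl1 and Amotl2 was the highest of the 45 pairs of members. Other named features had a higher r with each gene, up to 0.890 with Amotl1 and 0.923 with Amotl2. Amot followed its relatives less, with r of 0.132 with Amotl1 and 0.337 with Amotl2. Lats2 had r of 0.671 with Amotl2, 0.610 with Amotl1 and 0.585 with Stk4, and only 0.167 with Lats1, while Nf2 and Stk4 had the lowest r of any pair at -0.691. By the same measure the named features most like Amotl2 over the 14 arrays were Nid2, which encodes the basement membrane protein nidogen 2 (r = 0.923), Kdelr3 (r = 0.910), Rasl11b (r = 0.900), Fbxo36 (r = 0.898) and Fam149a (r = 0.889). Those most like Lats2 were Rbis (r = 0.943), Emc7 (r = 0.942), Trip11 (r = 0.940), Rbm26 (r = 0.937) and Smc4 (r = 0.929).

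**Figure D4:**
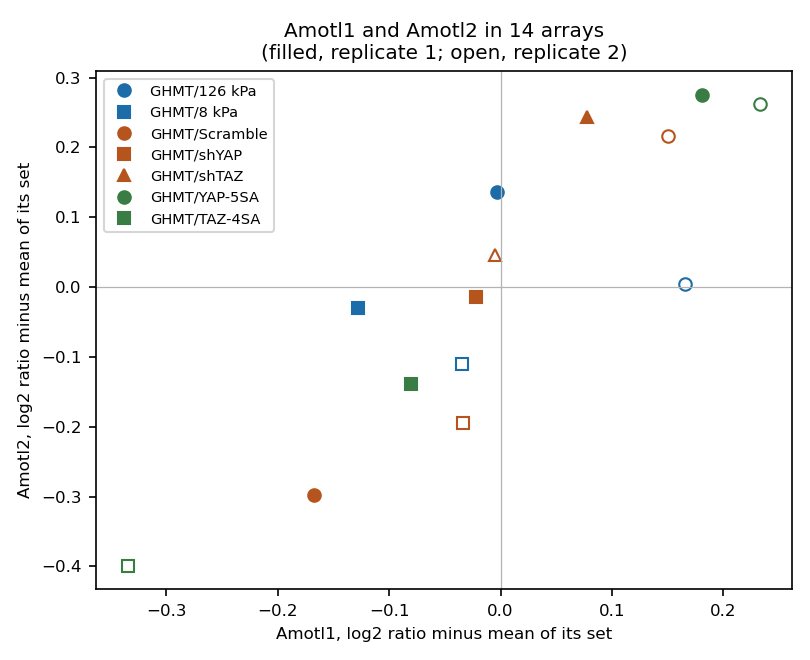
Amotl1 (horizontal axis) and Amotl2 (vertical axis) in each of the 14 arrays, as the log2 ratio minus the mean of its set, with filled symbols for replicate 1 and open symbols for replicate 2. The points run from TAZ-4SA replicate 2 at the lower left to the YAP-5SA arrays at the upper right (r = 0.871).

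Replicate spread differed between the members. Over all features the median pooled SD of replicates was 0.165 in the stiffness set, 0.132 in the shRNA set and 0.148 in the mutant set. Amot was above it in the stiffness set at 0.321, and Stk4 and Amotl2 were above it in the shRNA set at 0.257 and 0.236. Mob1a had 0.029 in the stiffness set and 0.038 in the mutant set, which are low, and 0.167 in the shRNA set, which is above the median.

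Of 13 genes on a list of further Hippo kinases 10 had a feature, and none passed in any comparison. With shYAP 7 were lower and 3 higher (median -0.205), and with shTAZ 6 were lower and 4 higher (median -0.134), while on 8 kPa the median was -0.039. The medians over all features were 0.050, 0.043 and 0.034, in that order. Taok3, which encodes a kinase that can activate MST and LATS, had -0.79 and -0.73 in shYAP and -0.72 and -0.83 in shTAZ against 0.21 and -0.21 in Scramble. Its differences were -0.76 with shYAP (SE 0.16, limma adjusted p = 0.103) and -0.77 with shTAZ (SE 0.16, limma adjusted p = 0.140). Stk38l, which encodes the LATS-related kinase NDR2, differed by -0.57 with shYAP (SE 0.14, limma adjusted p = 0.129) and by -0.38 with shTAZ (SE 0.14).

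Among upstream scaffolds and polarity proteins, 20 of 22 had a feature and none passed. On 8 kPa 7 were higher and 13 lower (median -0.099), with shYAP 14 and 6 (median 0.032), with shTAZ 12 and 8 (median 0.090), and between the mutants 9 and 11 (median -0.065). The medians over all features were 0.034, 0.050, 0.043 and -0.009, in that order. The atypical cadherin genes Dchs1 and Fat4, a receptor pair whose fly relatives act on the pathway, had the largest differences on 8 kPa. Dchs1 had -1.59 and -1.39 on 8 kPa against 0.08 and -0.08 on 126 kPa (difference -1.49, SE 0.16, limma adjusted p = 0.0749). Fat4 had -1.002 and -1.44 against -0.03 and 0.03 (difference -1.22, SE 0.19, limma adjusted p = 0.158). These exceeded the difference of every member in that comparison. The polarity gene Mpp5, which encodes PALS1, differed by -0.59 with shYAP (SE 0.12, limma adjusted p = 0.103), and Patj by -0.61 between YAP-5SA and TAZ-4SA (SE 0.14, limma adjusted p = 0.132).

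Of 14 genes for proteins that hold the kinases in check, 13 had a feature and none passed. Strip2, which encodes a subunit of the STRIPAK phosphatase complex that dephosphorylates MST, differed by 0.89 on 8 kPa (SE 0.14, limma adjusted p = 0.153), by 0.96 with shYAP (SE 0.19, limma adjusted p = 0.0947) and by 0.89 with shTAZ (SE 0.19, limma adjusted p = 0.148). Wwp1, which encodes a ubiquitin ligase of LATS1, differed by -0.58 on 8 kPa (SE 0.14), by -1.14 with shYAP (SE 0.28, limma adjusted p = 0.132) and by -1.21 with shTAZ (SE 0.28, limma adjusted p = 0.166). Its Scramble arrays were at 0.44 and -0.44. Siah2, which encodes a ubiquitin ligase of LATS2, differed by -0.60 with shYAP (SE 0.14, limma adjusted p = 0.126) and by 0.65 between YAP-5SA and TAZ-4SA (SE 0.16, limma adjusted p = 0.152). Between the mutants 11 of the 13 were higher with YAP-5SA and 2 lower, with a median of 0.266 beside -0.009 over all features. Of the 13, 5 had an unadjusted p under 0.05, all higher, beside 6.55% higher and 7.0% lower of all features.

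The outputs of the pathway give a scale for the differences of the members. Of 20 target genes of YAP and TAZ that are not members, all had a feature and none passed. With shYAP 6 were higher and 14 lower (median -0.202), with shTAZ 6 and 14 (median -0.112), on 8 kPa 6 and 14 (median -0.073), and between the mutants 13 and 7 (median 0.234). The medians over all features were 0.050, 0.043, 0.034 and -0.009, in that order. With shYAP, Ankrd1 differed by -0.85 (SE 0.12, limma adjusted p = 0.0525), about as much as Stk4, and Ccn2, which encodes CTGF, by -0.67 (SE 0.13, limma adjusted p = 0.0947). The known feedback genes Lats2 and Amotl2 differed by -0.37 and -0.06 in that comparison. Between the mutants Nt5e differed by 1.12 (SE 0.18, limma adjusted p = 0.053) and Ccn1 by 0.65 (SE 0.14, limma adjusted p = 0.113). Both went in the same direction as the angiomotins and as Lats2, whose arrays overlapped between the mutants. At an unadjusted p under 0.05 there, 7 targets were higher and 2 lower, beside 6.55% and 7.00% of all features. On 8 kPa the largest difference of a target was that of Igfbp3, at -2.21 (SE 0.18, limma adjusted p = 0.0548). With shYAP, Igfbp3 differed in the other direction, by 0.62 (SE 0.34), and with shTAZ by -0.36 (SE 0.34). Of Yap1, Wwtr1, the TEAD genes and Vgll4, 7 in all, Yap1 with shYAP was the sole one to pass.

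Markers of several cell types differed between the groups. Of 20 macrophage and leukocyte markers 19 had a feature, and their mean log2 ratio was 1.12 and -1.12 in the Scramble arrays, -2.33 and -3.69 in shYAP and -5.07 and -4.86 in shTAZ. With either shRNA all 19 were lower than Scramble without overlap, beside 19.6% of all features with shYAP and 17.9% with shTAZ. At an unadjusted p under 0.05 were 18 with shYAP and 19 with shTAZ, beside 7.39% and 5.71% as lower. None passed the adjusted threshold, which no feature at all passed with shTAZ. Stk4, which leukocytes also express, had 0.20 and -0.20 in Scramble, -1.002 and -0.71 in shYAP, and -0.60 and -0.22 in shTAZ. On 8 kPa the markers averaged -1.63 and -1.55 against 0.08 and -0.08 on 126 kPa, with 4 passed as lower, beside 0.0721% of all features. With YAP-5SA they averaged -2.86 and -1.04, and with TAZ-4SA -2.21 and -2.86. The ratios carry no level, so it is not known whether any of these markers was near 0, and the part of such cells in the differences of the members was not tested. Of 10 cardiomyocyte markers 9 were higher and 1 lower with shYAP, with a median of 1.10. There 6 higher and 1 lower passed, beside 0.321% and 0.212% of all features. With shTAZ 9 were higher and 1 lower (median 0.765), and on 8 kPa 4 were higher and 6 lower (median -0.071), and none passed in either comparison. All 10 were lower with YAP-5SA than with TAZ-4SA (median -1.37), and 6 passed, beside 0.493% of all features as lower. Of 11 fibroblast markers with a feature none passed in any comparison, and their medians lay between -0.084 and 0.187. The 9 endothelial markers with a feature, which bear on Amot because endothelial cells express it, had a median of 0.222 on 8 kPa, -0.110 with shYAP, 0.017 with shTAZ and -0.184 between the mutants, and none passed. The 8 epithelial markers had medians of 0.046 to 0.123, and none passed. The part of shifts in cell makeup in the differences of the members was not tested.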

How the data were processed

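RNA of 14 cultures was hybridised to Clariom S Mouse arrays, and the study calls the 2 arrays of each of the 7 groups independent biological replicates. Scans were processed by the authors in Affymetrix Expression Console (version 1.4, from the submitters' processing notes), and the summarisation and normalization settings are not given in the sources used here. The deposited values are log2 ratios to a reference of each of 3 sets of arrays, and no signal level or probe intensity was used here, so no filter on dim features was applied. Of 22206 features, 19572 have 1 gene symbol in the platform annotation and 2634 have none. limma (version 3.58.1, R 4.3.3) was fitted within each set to features with a value in every array, 22206 in the stiffness set, 22122 in the shRNA set and 22127 in the mutant set, with 2, 3 and 2 residual degrees of freedom. The 3 shRNA groups shared 1 fit. Benjamini-Hochberg adjustment was over all features tested, at a threshold of 0.05, and intervals cover 95% for a single gene without adjustment. The steps were tested on simulated data. The number of arrays limits the precision.

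Named were all 10 genes and, from each pathway list, up to 3 features with the largest difference in a comparison and any past the test, of which the text gives a part. Named as most like Lats2 and Amotl2 were the 5 named features with the highest Pearson r over 14 arrays after subtracting the mean of each set. The genes and lists were chosen with earlier results of these data known. Alternatives were median centring, array weights, robust variance moderation, the replicate number as a block, only the groups compared, 1 fit to all 14 arrays, features with a gene symbol only, and each array left out in turn.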

Additional observations from a re-analysis of the deposited data

How the results depend on the processing

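None of the 10 genes passed the test in any comparison as reported, and this held under median centring, array weights, robust variance moderation, only the groups compared and features with a gene symbol only. In 1 fit to all 14 arrays, 1 gene passed with shYAP, namely Stk4. With 1 array left out, 0 to 1 genes passed with shYAP (Stk4, without Scramble replicate 2), 0 to 1 with shTAZ (Amot, without Scramble replicate 2), and 0 in the other comparisons. The labels give the replicates of all groups the same numbers without saying that a number marks a shared culture or day. The replicate-1 deviations of the groups had r of 0.050 in the stiffness set and 0.148 in the mutant set. In the shRNA set r was 0.202 for Scramble and shYAP, and -0.023 and -0.0007 for the other pairs. Such r cannot show whether a number marks a shared culture or day, so the pairing is not known. With the replicate number as a block, 0 genes passed in every comparison, and all features past the test were 0 on 8 kPa (16 without the block), 31 with shYAP (118), 1 between the shRNAs (10), 294 between the mutants (198) and 0 with shTAZ (0). In 1 fit to all 14 arrays the counts over all features were 342, 568, 392, 40 and 547 for 8 kPa, shYAP, shTAZ, the shRNAs and the mutants. Array weights gave 62 with shYAP and 27 between the shRNAs, robust moderation 9 with shTAZ, and the fit to 2 groups alone 2 with shYAP. Left-out arrays gave 0 on 8 kPa, 0 to 1937 with shYAP, 0 to 1632 with shTAZ, 0 to 13 between the shRNAs and 143 to 881 between the mutants.

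Apart from left-out arrays, 333 recomputed differences kept their direction and side of the threshold. The exceptions were Stk4 in the 14-array fit and Sav1 on 8 kPa, which went from 0.0012 to -0.030 under median centring. With 1 array left out, 233 did so, 2 came to pass and 29 changed direction. On 8 kPa the ranges were -0.12 to 0.080 for Lats1, -0.10 to 0.074 for Lats2, -0.13 to 0.10 for Stk4, -0.064 to 0.067 for Sav1, -0.031 to 0.026 for Mob1a, -0.12 to 0.083 for Mob1b, -0.15 to 0.12 for Nf2 and -0.031 to 0.53 for the unmapped Amot feature. With shYAP they were -0.29 to 0.041 for Mob1a, -0.18 to 0.14 for Amotl1 and -0.32 to 0.19 for Amotl2. With shTAZ they were -0.00065 to 0.15 for Lats1, -0.21 to 0.038 for Lats2, -0.30 to 0.030 for Mob1a, -0.14 to 0.059 for Mob1b, -0.031 to 0.13 for Nf2, -0.11 to 0.20 for Amotl1 and -0.071 to 0.44 for Amotl2. Between the shRNAs they were -0.021 to 0.016 for Sav1 and -0.11 to 0.13 for Mob1a, and between the mutants -0.0099 to 0.14 for Lats1. The cause of these changes was not tested beyond the smaller number of arrays. No signal over background was analysed.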
